A study of Mus musculus with 4 samples.

Results

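The 10 genes described here encode the surface receptors, bridging proteins and inhibitory checkpoint by which a phagocyte takes up a dying cell, a process called efferocytosis: Cd47, Sirpa, Mertk, Axl, Gas6, Pros1, Mfge8, Stab1, Cd36 and Anxa1. They were chosen by name for their role, with earlier results of these data known, and each was found in 1 row of the 32285 genes of the feature list. RNA was measured on spatial arrays, where a spot is a small patch of tissue that can hold several cells of different types, in tibial muscle that was frozen fresh and cut into sections. The mice were Nse-Bmp4 animals on a C57BL/6 background, 6-8 week old. There was 1 section of uninjured muscle (day 0) and 1 section each from muscle 1, 3 and 7 days after cardiotoxin injury (dpi). All 4 sections carried the Bmp4 transgene, driven by the promoter of neuron specific enolase (Nse), and no wild-type section was used here. The transgene makes injured muscle form heterotopic cartilage and bone. With 1 section per day there was no replicate, so no difference between days could be tested, and every interval below is a 95% interval that covers counting error only and not the spread between animals, sections or slides.

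A dying cell exposes phosphatidylserine on its surface. Mertk and Axl, receptor tyrosine kinases of the TAM family, bind it through the secreted bridges Gas6 and protein S (Pros1), while Mfge8 links it to integrins and Stab1 and Cd36 are scavenger receptors that take part in the same uptake. Cd47 on a healthy cell engages Sirpa on the phagocyte and holds back engulfment, and annexin A1 (Anxa1) acts through formyl peptide receptors to limit neutrophil entry and promote clearance. In injured muscle, clearance of dead fibres and neutrophils by macrophages precedes repair.

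The sections held 2107, 2667, 3029 and 3032 spots on days 0, 1, 3 and 7, with 43871586, 16777832, 56113066 and 41832640 unique molecular identifiers (UMIs), each a counted RNA molecule. The day 1 section was the shallowest, at a median of 6322 UMIs per spot against 12119.5 to 21029 in the others. Levels are given as UMIs per 1000000 UMIs of the section (CPM). The summed level of 7 macrophage genes (Adgre1, Cd68, Csf1r, Ctss, Aif1, Ms4a7 and Fcgr1), all of them detected on every day, was 65.2, 524, 2186 and 393 CPM, and that of 13 adult myofibre genes was 255139, 137097, 84068 and 150408 CPM. These shifts moved with the results below, and their part in them was not tested. In spots, fewer cells of a type and less RNA per cell cannot be told apart. The sections shared 1341 spot barcodes, which are positions of the array design and do not mark shared cells.

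Most of the 10 genes stood higher after injury, at 3 dpi above all, with 3 distinct time courses and Cd36 apart. Sirpa, Mertk, Stab1, Anxa1 and Cd47 were highest at 3 dpi and lower again at 7 dpi. Gas6 and Mfge8 were highest at 7 dpi, while Axl and Pros1 reached about the same level at 3 and 7 dpi. Cd36 lay below its uninjured level on each injured day.

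**Figure D1:**
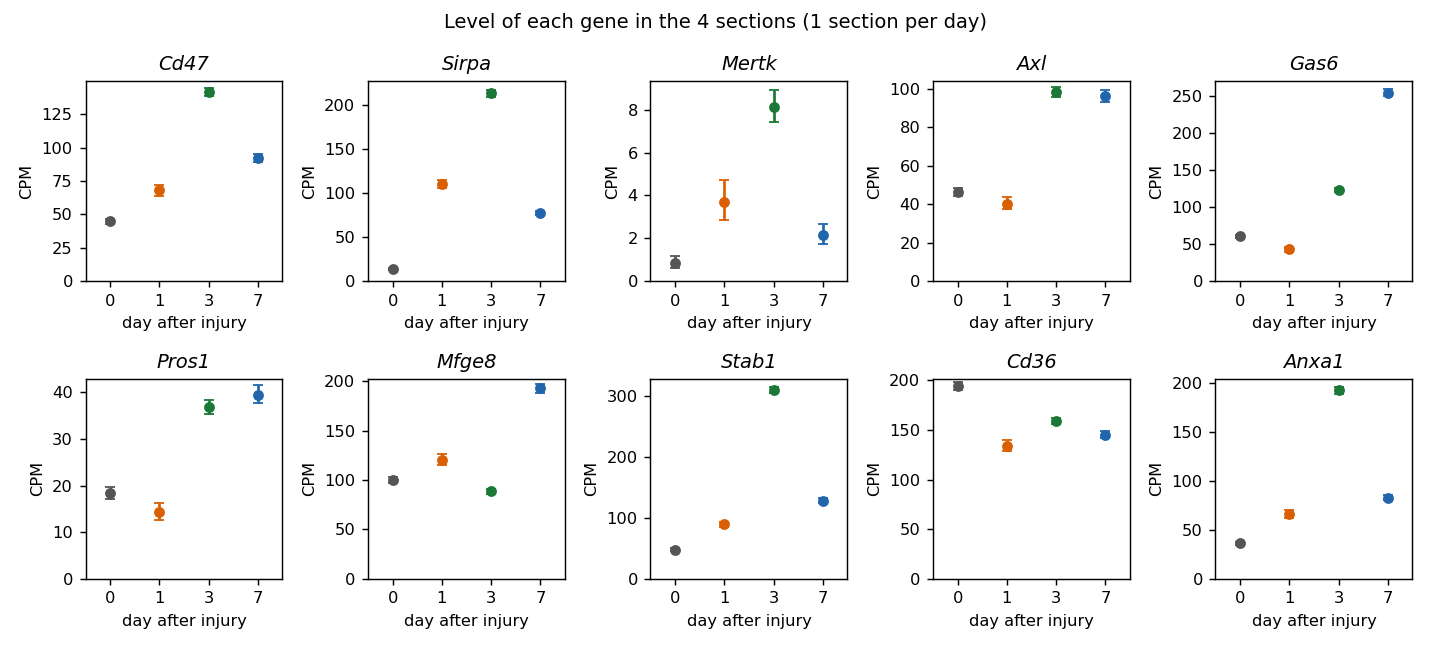
Level of each gene in CPM (vertical axis, from 0, a separate scale for each gene) against the day after injury; points are single sections and bars the 95% Poisson intervals. Sirpa, Mertk, Stab1, Anxa1 and Cd47 peak at 3 dpi, Gas6 and Mfge8 at 7 dpi, and Cd36 is highest in the uninjured section, at 194 CPM.

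Of the checkpoint pair, Sirpa (ENSMUSG00000037902, chr2:129591042-129632228 in mm10), the inhibitory receptor of myeloid cells, was at 13.6, 110, 213 and 77.3 CPM on days 0, 1, 3 and 7. It was therefore lowest in the uninjured section, and none of the 4 intervals overlapped. The ratio to day 0 was 8.10 (7.38 to 8.90) at 1 dpi, 15.7 (14.4 to 17.0) at 3 dpi and 5.68 (5.20 to 6.21) at 7 dpi, the largest of the 10 genes at each time. Reads of the related receptor genes Sirpb1a, Sirpb1b and Sirpb1c could in part be shared with Sirpa, and these held at most 1347 UMIs each (Sirpb1c at 3 dpi) against 11963 for Sirpa. Cd47 (ENSMUSG00000055447, chr16:49851328-49912503), the ligand carried by most cells, was at 44.8, 68.0, 142 and 92.0 CPM. It stood higher on each injured day, by less than its receptor, at 3.16 (3.01 to 3.32) times day 0 at 3 dpi.

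Among the receptors, Mertk (ENSMUSG00000014361, chr2:128698915-128803162) was sparse, with 38, 62, 457 and 91 UMIs, or 0.866, 3.70, 8.14 and 2.18 CPM. It peaked at 3 dpi, where 12.2% of spots held a UMI of it against 1.71% on day 0. The ratio to day 0 was 9.40 (6.75 to 13.5) at 3 dpi, and the level at 7 dpi was 0.267 (0.211 to 0.335) of that at 3 dpi, the largest drop of the 10. Axl (ENSMUSG00000002602, chr7:25756500-25788924) behaved differently, at 46.3, 40.4, 98.3 and 96.4 CPM. It was slightly lower at 1 dpi, at 0.871 (0.797 to 0.951) of day 0, and the 3 and 7 dpi levels were close, with a ratio of 0.980 (0.941 to 1.02).

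Stab1 (ENSMUSG00000042286, chr14:31139017-31168651), a scavenger receptor of resident macrophages and sinusoidal endothelium, was at 47.9, 89.3, 310 and 128 CPM. Its 3 dpi level was 6.48 (6.19 to 6.78) times day 0, and the 4 intervals were apart. Cd36 (ENSMUSG00000002944, chr5:17781690-17888959), which also imports fatty acids into fat, muscle and capillary cells, was at 194, 134, 159 and 145 CPM. The uninjured section was the highest, and the injured ones lay at 0.691 (0.660 to 0.724), 0.820 (0.796 to 0.845) and 0.749 (0.725 to 0.774) of it.

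Of the bridges, Gas6 (ENSMUSG00000031451, chr8:13465374-13494535) was at 60.5, 43.0, 123 and 254 CPM. It was lowest at 1 dpi and highest at 7 dpi, at 4.20 (4.03 to 4.39) times day 0 and 2.06 (2.0 to 2.12) times 3 dpi. Pros1 (ENSMUSG00000022912, chr16:62854307-62929346) was at 18.3, 14.3, 36.8 and 39.5 CPM, low at 1 dpi like Gas6 and with little further change from 3 to 7 dpi. Mfge8 (ENSMUSG00000030605, chr7:79133768-79149060), also made by endothelial and smooth muscle cells, was at 99.9, 121, 88.7 and 193 CPM. Its lowest level was at 3 dpi, when the macrophage genes were highest, and its 7 dpi level was 2.17 (2.10 to 2.25) times that at 3 dpi. Anxa1 (ENSMUSG00000024659, chr19:20373434-20390671), a regulator of inflammation and not itself a receptor, was at 36.2, 66.5, 193 and 82.9 CPM. Its time course was that of Stab1, with a 3 dpi level 5.32 (5.05 to 5.61) times day 0.

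Counted at 2-fold, 2 of the 10 genes were higher and 0 lower at 1 dpi than on day 0 (Sirpa and Mertk), beside 17.3% higher and 10.6% lower among the 13730 genes that reached 100 UMIs in the 4 sections together. At 3 dpi 8 were higher and 0 lower, beside 31.5% and 6.69% of all genes. At 7 dpi again 8 were higher and 0 lower, beside 29.8% and 1.26%. The comparisons share the day 0 section and are not independent. The median log2 ratio of the 10 was 0.44, 1.37 and 1.15 at 1, 3 and 7 dpi and that of all these genes 0.17, 0.57 and 0.63. The adult myofibre genes, at 255139 CPM, held their largest share on day 0, and their part in that general shift was not tested. With TMM scaling, which sets that shift to near 0, the log2 ratios are lower by 0.19, 0.55 and 0.61, and 5 genes at 3 dpi (Sirpa, Mertk, Stab1, Anxa1 and Cd47) and 2 at 7 dpi (Sirpa and Gas6) stayed at least 2-fold higher, beside 18.1% and 13.04% of all genes under that scaling.

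Between injured days, 7 of the 10 genes were at least 2-fold higher at 3 dpi than at 1 dpi and 0 lower (17.9% and 2.13% of all genes). The exceptions were Sirpa, already high at 1 dpi, at a log2 ratio of 0.95, Cd36 at 0.25 (-0.12 under TMM) and Mfge8 at -0.44. From 3 to 7 dpi, 2 were higher, the bridges Gas6 and Mfge8, and 4 lower, Sirpa, Mertk, Stab1 and Anxa1 (12.6% and 9.88% of all genes). The median log2 ratio of the 10 was -0.38 against 0.06 for all genes.

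**Figure D2:**
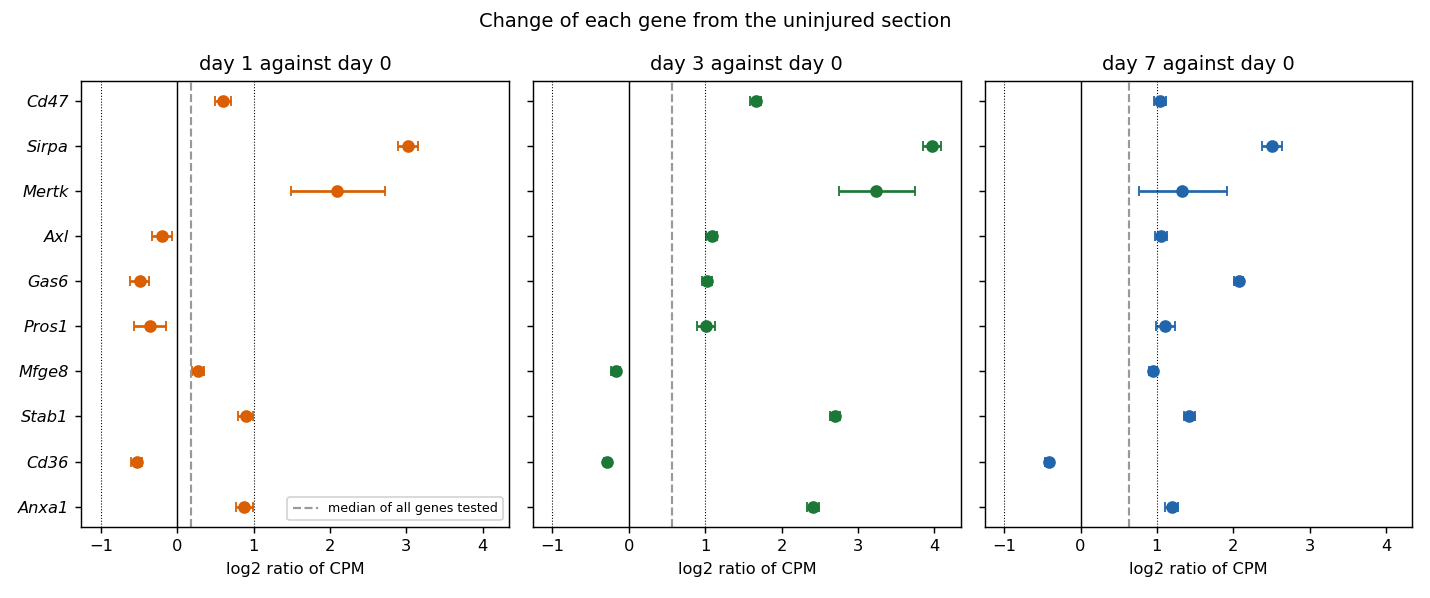
Log2 ratio of CPM to the uninjured section (horizontal axis) for each gene at 1, 3 and 7 dpi; bars are 95% counting intervals, dotted lines mark 2-fold and the dashed line the median of all 13730 genes counted. Sirpa is farthest right on each day, and Axl, Gas6, Pros1 and Cd36 lie left of 0 at 1 dpi.

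The balance between partners does not depend on the scaling of a section. Cd47 had 3.29 UMIs for each UMI of Sirpa on day 0, 0.616 at 1 dpi, 0.664 at 3 dpi and 1.19 at 7 dpi. As UMIs were not set per length of transcript, the change of this ratio and not its size is the measurement. It stood at 0.202 (0.183 to 0.222) of its day 0 value at 3 dpi and at 0.361 (0.326 to 0.401) at 7 dpi, so ligand and receptor RNA had moved only part of the way back. Axl to Mertk ran from 53.5 on day 0 to 10.9, 12.1 and 44.3, and the 7 dpi ratio over that of day 0 was 0.828 (0.550 to 1.23), an interval that includes 1. Gas6 to Pros1 was 3.30, 3.00, 3.35 and 6.43, so the bridges kept their ratio until 3 dpi and Gas6 stood 1.95 (1.77 to 2.14) times higher relative to Pros1 at 7 dpi. Gas6 relative to its receptor Axl was likewise 2.02 (1.89 to 2.16) times its day 0 ratio at 7 dpi. Cd36 to Stab1 was 4.05, 1.5, 0.513 and 1.13, lowest at 3 dpi.

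**Figure D3:**
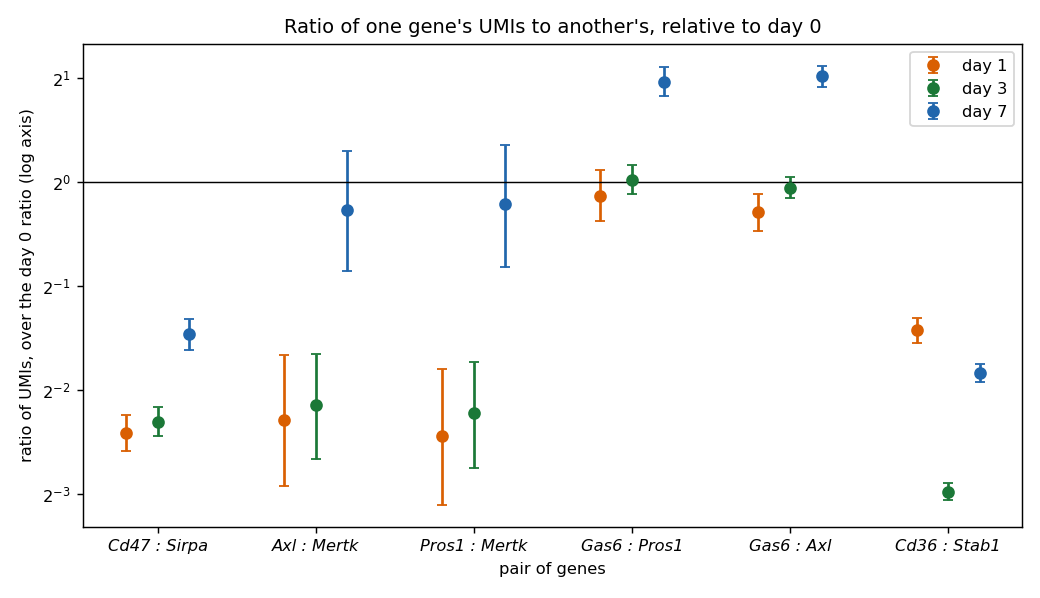
UMIs of the first gene over UMIs of the second, divided by the same ratio on day 0 (vertical log axis), for 6 pairs; bars are 95% counting intervals and the line at 1 is the uninjured ratio. Cd47 to Sirpa and Cd36 to Stab1 stay under 1 on each injured day, while Gas6 to Pros1 and Gas6 to Axl reach 1.95 and 2.02 at 7 dpi.

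Set against the macrophage genes, Mertk, Axl and Stab1 stood lower per unit of macrophage RNA on each injured day, and Sirpa at 3 dpi. Sirpa UMIs per UMI of the macrophage list were 0.209, 0.210, 0.0975 and 0.197. With Ctss in the list this was level on days 0, 1 and 7 and 0.467 (0.427 to 0.512) of day 0 at 3 dpi. Mertk relative to the list at 3 dpi was 0.280 (0.201 to 0.402) of its day 0 ratio, Stab1 0.193 (0.182 to 0.205) and Axl 0.0633 (0.0594 to 0.0675). Ctss alone held 15.1%, 27.5%, 48.5% and 28.1% of the list's UMIs on days 0, 1, 3 and 7, so these ratios depend on it on each injured day. Without Ctss, an alternative chosen after the values were seen, the same ratios at 3 dpi were 0.770 for Sirpa, 0.462 for Mertk, 0.319 for Stab1 and 0.104 for Axl, all still under 1.

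Where in the sections the genes lay was first read from the 25% of spots with the largest share of macrophage RNA, against the other spots of the same section with at least 2000 UMIs. Sirpa and Stab1 were over 2-fold higher in these spots in all 4 sections. With mitochondrial, haemoglobin and myofibre genes left out of the totals, this held for Sirpa in each section but not for Stab1 at 7 dpi. Sirpa was 2.55 (2.16 to 3.00), 4.05 (3.68 to 4.47), 3.32 (3.20 to 3.45) and 2.89 (2.69 to 3.10) times higher in these spots on days 0, 1, 3 and 7. Stab1 was 2.53, 3.56, 3.22 and 2.23 times higher. Anxa1 was 1.69, 2.57, 3.21 and 2.26 times higher. For Mertk the uninjured section differed from the rest with this list. There 7 of 38 UMIs were in the macrophage-rich spots, a ratio of 0.718 (0.267 to 1.66). The ratio was 5.68 (3.20 to 10.3) at 1 dpi, 3.97 (3.26 to 4.86) at 3 dpi and 3.08 (1.99 to 4.83) at 7 dpi. Spots were also ranked by 6 genes of resident macrophages (Lyve1, Folr2, Cd163, Mrc1, F13a1 and Cbr2). Mertk was then at 0.790 (0.294 to 1.83) on day 0, 3.57 (2.01 to 6.32) at 1 dpi and 1.77 (1.45 to 2.15) at 3 dpi. At 7 dpi it was at 0.797 (0.416 to 1.42), close to day 0.

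Cd47 was 1.33, 2.12, 2.44 and 1.75 times higher in macrophage-rich spots, less than Sirpa on each day. Mfge8 was at 1.00 (0.943 to 1.06) at 3 dpi and Cd36 at 1.00 (0.947 to 1.06) at 7 dpi, no different from the other spots within counting error. Gas6 was at 1.10 (0.914 to 1.32) at 1 dpi and 2.14 (2.06 to 2.23) at 7 dpi. In all, 2, 5, 6 and 5 of the 10 genes were at least 2-fold higher in these spots on days 0, 1, 3 and 7, beside 6.66%, 19.8%, 25.6% and 10.3% of all genes outside the list. Macrophage-rich spots at 3 dpi held 0.165 of the myofibre RNA share of the others, and with mitochondrial, haemoglobin and myofibre genes left out of the totals the day 3 ratios were lower: 2.56 for Sirpa, 2.48 for Stab1, 2.47 for Anxa1, 3.06 for Mertk, 1.88 for Cd47, 0.994 for Gas6 and 0.770 for Mfge8.

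**Figure D4:**
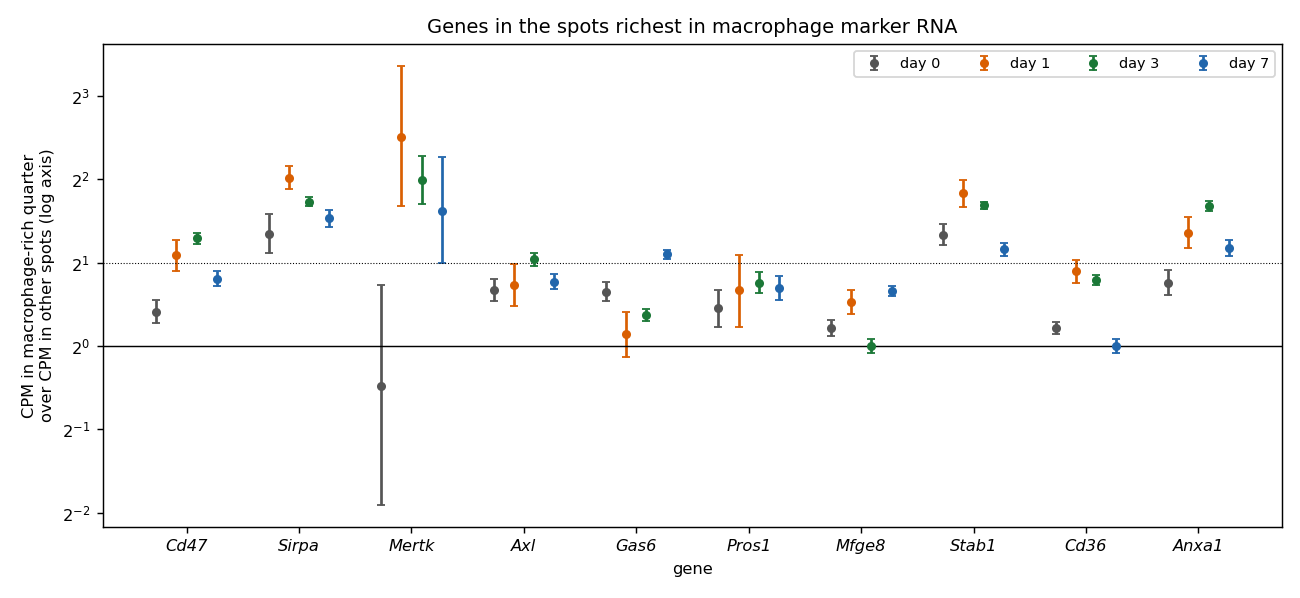
CPM of each gene in the 25% of spots richest in macrophage RNA over CPM in the other spots of that section (vertical log axis) on days 0, 1, 3 and 7; bars are 95% counting intervals, with lines at 1 and at 2-fold. Sirpa and Stab1 lie above 2 in each section, Mertk only in the 3 injured ones, and Mfge8 at 3 dpi and Cd36 at 7 dpi lie at 1.00.

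Spots ranked by other marker lists showed Axl, Gas6 and Pros1 at least 2-fold higher in stromal-rich spots on some days only. Mfge8 was higher in spots rich in vessel wall RNA. In the 25% of spots richest in stromal RNA (Pdgfra, Prrx1, Dcn, Dpt, Lum and Pi16), Axl was 2.58 (2.36 to 2.82) times higher on day 0 and 2.54 (2.16 to 2.98) at 1 dpi, but 1.23 (1.16 to 1.31) at 3 dpi, when it was 2.06 (1.95 to 2.17) times higher in macrophage-rich spots. Sirpa and Anxa1 were also higher in stromal-rich spots on day 0, at 2.42 (2.05 to 2.85) and 2.26 (2.04 to 2.50). Pros1 was 3.09 (2.35 to 4.05) times higher there at 1 dpi and 2.26 (2.05 to 2.50) at 7 dpi. Gas6 was 2.57 (2.47 to 2.67) times higher at 7 dpi. With muscle genes left out of the totals Pros1 at 7 dpi fell under 2-fold, and Gas6 did not. Axl at 7 dpi was at 1.62 in stromal-rich and 1.71 in macrophage-rich spots, and Pros1 at 3 dpi at 1.69 in both. Of the 10 genes 3, 2, 0 and 2 were at least 2-fold higher in these spots on the 4 days, beside 9.45%, 13.4%, 2.83% and 15.6% of all genes. In spots rich in mural RNA, the cells of the vessel wall (Myh11, Acta2, Rgs5, Cspg4, Notch3 and Kcnj8), Mfge8 was 1.96, 2.44, 1.51 and 1.79 times higher on the 4 days. It was not particular to these, with 2.29 in adipocyte-rich spots at 1 dpi and 1.76 in stromal-rich spots at 7 dpi. Spots were ranked by neutrophil RNA too (S100a8, S100a9, Retnlg, Csf3r, Cxcr2, Ly6g and Mmp9). In the richest 25% at 1 dpi Sirpa was 2.19 (1.98 to 2.42), Mertk 2.35 (1.29 to 4.19) and Stab1 2.17 (1.94 to 2.43) times higher. The other genes were under 2-fold, and with muscle genes left out of the totals Sirpa and Stab1 were too. The share of all genes that high in these spots is not given here, so no count is drawn from this list. In spots richest in adult myofibre RNA every one of the 10 genes lay under 1 on each day, from 0.123 (Mertk at 3 dpi) to 0.846 (Cd36 at 7 dpi), with an interval that reached 1 for Mertk on day 0 alone. At least 2-fold lower there were 2, 7, 8 and 7 of them, beside 8.44%, 24.8%, 33.5% and 26.3% of all genes. With muscle genes left out of the totals these counts were 1, 5, 5 and 1, for which the share of all genes is not given here.

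Each section was also divided into regions by clustering of its spots, 30 in all (7, 8, 8 and 7 by day), which are called by their leading genes. They show where each gene was densest. At 1 dpi Sirpa, Stab1, Anxa1, Mertk and Cd47 were highest in the same region, led by Slfn4, Spp1, Oas2, Retnla and Rassf2 (434 spots). There Sirpa reached 383 CPM (356 to 411), 5.27 times the rest of the section, Stab1 301 CPM at 5.00 times and Cd47 161 CPM at 2.92 times. At 3 dpi the region led by the interferon-induced and inflammatory genes Rsad2, Il1rn, Ifit1, Ccl12 and Oasl1 (257 spots) held the highest Sirpa (514 CPM), Stab1 (695 CPM), Anxa1 (494 CPM) and Cd47 (294 CPM). Another region, led by Mest, Lpcat2, Cxcr4, Ms4a7 and Otulinl (523 spots), held the highest Mertk, at 16.5 CPM (14.5 to 18.6) against 14.3 (11.1 to 18.3) in the interferon-gene region, a difference within counting error.

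Cd36 separated these macrophage-gene-rich regions of 3 dpi. It was at 437 CPM (418 to 457) in the interferon-gene region, 3.25 times the rest of the section, and at 150 CPM (144 to 156), 0.924 times the rest, in the region led by Mest. On day 0 the densest Cd36 was elsewhere: 479 CPM (442 to 518) in a region of 96 spots led by the fat genes Nnat, Pck1 and Cidec with Hp and Wfdc21, where Sirpa was also at 38.5 CPM and Stab1 at 113 CPM. In the slow-fibre-gene region of day 0 (Myh7, Tnnc1, Tnni1, Tnnt1 and Myl2, 612 spots) Cd36 was at 229 CPM (222 to 237). At 7 dpi Cd36 was highest in the slow-fibre-gene region led by Myh7, Myl2, Myl3, Myh2 and Myoz2, at 235 CPM, and lowest in the cartilage-gene region, at 63.2 CPM (56.2 to 70.9).

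The densest regions of the bridges were in part those of the other genes. On day 0 Gas6 and Pros1 were highest in the fat-gene region led by Nnat, and Pros1 at 3 dpi in the interferon-gene region, at 60.5 CPM, though for Pros1 neither held with finer regions. Gas6 at 3 dpi was at 613 CPM (569 to 660), 5.42 times the rest, in 126 spots led by Cfd, Wfdc21, Hp, Retn and Mrap, genes of fat cells, where Mertk had 2 UMIs. At 7 dpi Gas6 was at 569 CPM (547 to 591), 2.65 times the rest, in 308 spots led by the cartilage genes Col10a1, Col9a1, Col9a3 and Col2a1 with Slc13a5. The same cartilage-gene region had the highest 7 dpi levels of Mfge8 (361 CPM, 2.11 times the rest), Pros1 (71.2 CPM, 2.0 times), Cd47 (148 CPM, 1.74 times) and Anxa1 (145 CPM, 1.93 times), but not of Axl (84.9 CPM, 0.868 times). This depended on how finely the section was divided: with 15 regions in place of 7, Gas6 (729 CPM), Mfge8 (392 CPM), Pros1 (84.5 CPM) and Cd47 (171 CPM) were highest in 137 spots led by the matrix genes Lrrc15, Aspn, Dkk3, Col8a2 and Thbs2, and Anxa1 (184 CPM) in 41 spots led by Adamts8, Mmp13, Chad, Kera and Cilp2. Mertk at 7 dpi was instead highest in a region led by Mmp12, Gpnmb, Myh3, Spp1 and Myl4 (226 spots), at 4.04 CPM (2.61 to 5.96), where Sirpa was at 136 CPM. The cartilage-gene region was within counting error of this, at 2.79 CPM (1.48 to 4.76) of Mertk, and with 15 regions Mertk (4.41 CPM) and Sirpa (171 CPM) were highest in the region led by Lrrc15. Mfge8 had its highest level of all at 1 dpi, 691 CPM (602 to 790) or 6.29 times the rest, in 48 spots led by Cytl1, P2rx1, Actg2, Cnn1 and Igfbp2, several of them smooth muscle genes. Axl at 1 dpi was highest in 97 spots led by the tendon genes Tnmd, Angptl7, Cilp2, Chad and Comp, at 86.8 CPM (69.4 to 107), though its interval overlapped that of the next region, 67.5 CPM (41.8 to 103).

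**Figure D5:**
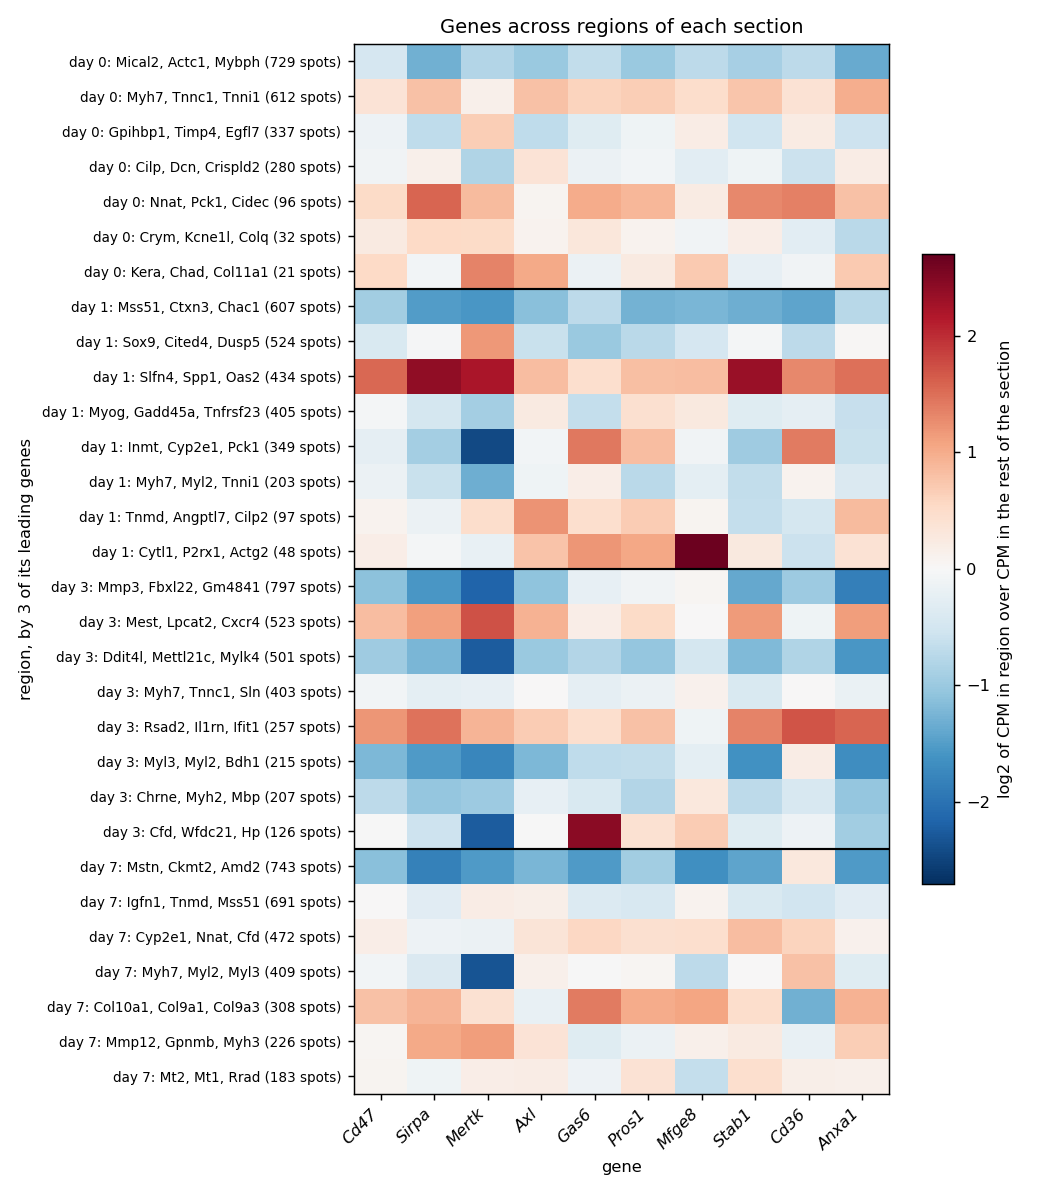
Log2 of CPM in a region over CPM in the rest of its section (colour) for each gene (columns) in each of the 30 regions (rows, by day, 3 of the leading genes and number of spots). Sirpa, Mertk, Stab1 and Cd47 are darkest in the region led by Slfn4 at 1 dpi, Gas6 in the fat-gene region at 3 dpi and Mfge8 in the region led by Cytl1 at 1 dpi; Cd36 is low in the cartilage-gene region at 7 dpi.

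Over the 30 regions of the 4 sections, as a description only since regions of 1 section share its library, the log2 CPM of Cd47 correlated with that of Stab1 at r = 0.938 and of Anxa1 at r = 0.929, and Stab1 with Anxa1 at r = 0.892. Sirpa was close to the macrophage list (r = 0.966), Gas6 to Pros1 (r = 0.881) and to the stromal list (r = 0.802), and Mfge8 to the endothelial list (r = 0.809). Cd36 had no close relation to any of the other 9 genes, at most r = 0.277 with Pros1, and r = 0.621 with a list of fatty acid uptake genes. Of 5345 genes compared, the nearest to Cd36 was Lpl, the lipoprotein lipase that frees fatty acids for uptake (r = 0.925), with the next, Coa5, at r = 0.651. Among the nearest to Cd47 were Asah1 (r = 0.966) and Rhoa (r = 0.955), and the nearest to Sirpa were Tmem106a, Laptm5 and Clec4a1 (r = 0.977 to 0.986), to Stab1 Grn, B2m and Naaa (0.947 to 0.971) and to Anxa1 Asah1, Rhog and Tnfaip8 (0.943 to 0.954). Mertk was nearest to Tmsb4x and Pfn1, which encode actin-binding proteins, and to Rac1 (0.917 to 0.926). Its UMIs were few, with 1 in its densest day 0 region, so these r rest in part on near-empty regions. Axl was nearest to Tgfbr2, Timp2 and Loxl1 (0.873 to 0.910), Pros1 to Cd302, Tgfbr2 and Lima1 (0.919 to 0.928), Gas6 to Igfbp4, Fcgrt and Il11ra1 (0.908 to 0.932) and Mfge8 to Col18a1, Epn2 and Cspg4 (0.844 to 0.904).

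As Cd47, Stab1 and Anxa1 moved together over the regions and Cd36 apart from them, the 250 bases before the first listed RefSeq start of each (GRCm38.p6, the build also called mm10) are shown for comparison, 5′ to 3′ on the gene's strand, with each match to a searched motif in capitals. They lie at chr16:49855404-49855653 (plus strand), chr14:31168642-31168891 (minus), chr19:20390672-20390921 (minus) and chr5:17835897-17836146 (minus), in that order.
Cd47: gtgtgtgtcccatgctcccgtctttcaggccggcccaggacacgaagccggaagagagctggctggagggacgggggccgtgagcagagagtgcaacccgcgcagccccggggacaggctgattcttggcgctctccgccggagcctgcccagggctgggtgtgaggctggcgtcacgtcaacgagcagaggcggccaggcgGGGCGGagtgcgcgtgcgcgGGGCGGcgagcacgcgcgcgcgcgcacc
Stab1: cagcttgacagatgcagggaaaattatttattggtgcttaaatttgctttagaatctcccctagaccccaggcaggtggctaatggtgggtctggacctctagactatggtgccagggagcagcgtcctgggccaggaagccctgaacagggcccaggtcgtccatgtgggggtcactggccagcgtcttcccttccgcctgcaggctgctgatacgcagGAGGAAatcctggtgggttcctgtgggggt
Anxa1: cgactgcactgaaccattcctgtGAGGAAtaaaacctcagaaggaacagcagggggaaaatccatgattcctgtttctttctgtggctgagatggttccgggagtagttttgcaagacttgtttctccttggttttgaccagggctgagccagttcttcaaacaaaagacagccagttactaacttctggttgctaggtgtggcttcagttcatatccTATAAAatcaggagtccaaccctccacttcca
Cd36: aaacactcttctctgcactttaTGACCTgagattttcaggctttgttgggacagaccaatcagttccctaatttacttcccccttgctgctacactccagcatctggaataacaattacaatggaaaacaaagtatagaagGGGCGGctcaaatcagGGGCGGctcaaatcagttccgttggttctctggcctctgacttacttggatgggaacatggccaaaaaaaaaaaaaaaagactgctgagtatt

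The motifs searched on both strands were the GC box GGGCGG, the TATA box TATAAA, the AP-1 motif TGANTCA, the nuclear receptor hexamer AGGTCA, the PU.1-type ETS core GAGGAA and the STAT motif TTCNNNGAA. Cd47 held 2 GC boxes, beginning 48 and 28 bases before the start, in a stretch of 73.2% G and C. Stab1 held a single match, GAGGAA beginning 30 bases before the start. Anxa1 held TATAAA 32 bases before the start and GAGGAA 227 bases before it. Cd36 held 2 GC boxes within a repeated stretch and TGACCT, the reverse complement of that hexamer. Of 32851 listed starts, 32.7% had a GC box, 12.4% a TATA box, 6.75% the AP-1 motif, 14.0% the hexamer, 23.3% the ETS core and 7.02% the STAT motif in this window. No motif was thus common to the 3 genes that moved together, and a match is a description of these letters and not a bound site. The Cd47 and Cd36 stretches lie inside the gene spans given above, and which start the counted RNA came from was not measured. Entries were listed for 9 of the 10 genes. Of the others, Mertk, Axl, Gas6, Pros1 and Mfge8 had 3, 1, 4, 5 and 4 GC boxes, with an ETS core also in Axl and Mfge8 and a STAT motif in Pros1.

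Partners of 1 recognition step were also counted in the same spots, with each spot thinned to 2000 UMIs so that depth did not set the share. Cd47 and Sirpa were both found in 0.285% (0.105 to 0.624) of spots on day 0, 4.25% (3.46 to 5.21) at 1 dpi, 7.87% (6.94 to 8.90) at 3 dpi and 2.36% (1.83 to 2.95) at 7 dpi. This was 1.24, 1.63, 1.35 and 1.27 times the product of their separate shares. The day 0 value rested on a mean of 5.95 spots, too few to compare, and the intervals cover the shares and not these ratios. No pair of unrelated genes was counted beside the partners. The genes of this set all lay lower in myofibre-rich spots, and the part of that in the ratios of each pair was not tested. Gas6 and Axl were both found in 1.10%, 0.926%, 3.64% and 6.03% of spots, 1.08 to 1.37 times the product. Mfge8 with the integrin chain Itgav, which recognises it, was found in 1.57%, 2.23%, 1.90% and 4.84% of spots and with Itgb5 in 1.28%, 2.05%, 3.5% and 4.42%.

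Thbs1, which encodes the bridge thrombospondin between dying cells and Cd36, was at 9.94, 42.0, 216 and 94.3 CPM. It shared 0.629%, 2.55%, 7.74% and 2.44% of thinned spots with Cd36, which was 1.02, 1.63, 1.26 and 0.760 times the product of the shares. The 7 dpi value was the only one of these pairs under 1, as it was thinned to 1000 (0.717) or 4000 UMIs (0.819), but with all UMIs kept, where depth also sets the share, it was 1.05. Mertk shared with Gas6 or Pros1, and Anxa1 with its receptor Fpr2, at most 0.315% of spots on any day, too few at this depth to compare. Fpr2 itself had 4, 47, 90 and 19 UMIs.

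The wider pathway was read from 53 further genes of recognition, engulfment, signalling and digestion, of which 49 had at least 100 UMIs. At least 2-fold higher than on day 0 were 18, 29 and 26 of the 49 at 1, 3 and 7 dpi, and lower were 3, 1 and 0, beside 17.3%, 31.5% and 29.8% of all genes higher and 10.6%, 6.69% and 1.26% lower, with median log2 ratios of 0.64, 1.33 and 1.04, where all genes had 0.17, 0.57 and 0.63. From 3 to 7 dpi 3 were higher and 17 lower, beside 12.6% and 9.88% of all genes, with a median of -0.45 against 0.06. The third TAM receptor, Tyro3, was at 0.866, 1.19, 1.64 and 4.85 CPM, highest at 7 dpi and so unlike Mertk. The integrin chain Itgb3 (2.28, 2.86, 1.80 and 9.16 CPM) and the adaptor Gulp1 (4.08, 2.26, 3.33 and 17.6 CPM) were also highest at 7 dpi. Timd4, a phosphatidylserine receptor of resident macrophages, was at 2.96, 0.298, 1.34 and 1.94 CPM, lowest at 1 dpi, as was Megf10 (4.56, 0.596, 4.17 and 3.94 CPM), an engulfment receptor also found in satellite cells.

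The complement bridges C1qa, C1qb and C1qc reached log2 ratios of 3.40, 4.04 and 3.34 at 3 dpi. The complement receptor chains Itgam and Itgb2 were both at 4.41, and the inhibitory receptors Cd300a and Pirb at 4.31 and 4.33. Ptpn6, the phosphatase that acts below Sirpa, was at 2.53, 40.8, 51.9 and 15.9 CPM, and like Sirpa it was high already at 1 dpi. Cd300lf, with 6 UMIs on day 0, had 173, 747 and 33 UMIs at 1, 3 and 7 dpi. The engulfment genes Dock2 and Rac2 were at 4.25 and 3.92, the chemokine receptor Cx3cr1 at 4.16, Ucp2 at 3.01 and Cd24a, which encodes another inhibitory surface protein, at 2.04. Abca1, which exports cholesterol after a meal of dead cells, was at -0.22 at 1 dpi and at 2.38 and 2.36 at 3 and 7 dpi. Arg1 and Odc1, enzymes of arginine and polyamine metabolism that efferocytosis draws on, were highest at 1 dpi instead: Arg1 had 4, 532, 295 and 4 UMIs and Odc1 was at 50.2, 353, 258 and 103 CPM.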

How the data were processed

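The authors processed the reads of each section with Space Ranger on mm10 (file headers give version 1.2.0; the study's methods another) and deposited raw UMI counts per gene and spot, kept for spots over tissue. Nothing was normalized before deposit. The labels mention 3 mixed muscles per group, in text shared with another assay; how many animals a section holds is not given in the sources used here. Counts were summed per section and divided by the section's UMIs (CPM). Intervals were exact: Poisson for levels, binomial for shares and ratios of a gene, conditional odds ratios for gene pairs. A count under 3 UMIs was entered as 3 in ratios of a gene between days, but not in their intervals. Spots under 2000 UMIs (17, 513, 9 and 84 on days 0, 1, 3 and 7) stayed out of spot rankings and of pair counts thinned to 2000. The day 1 values of these thus cover the deeper part of that section. Thinning used 20 draws. Regions came from Leiden clustering per section (Scanpy 1.11.5, 2000 variable genes, 30 components, 15 neighbours, resolution 0.5), leading genes from at least 50 CPM. No doublet caller was run, as spots hold several cells. edgeR 4.0.16 and DESeq2 1.42.0 gave scaling factors only. The code was tested on simulated data. Named genes followed set rules: all 10 members, their partners, pathway genes past 4-fold, the 3 nearest genes and 5 leading genes of a region; some items that these rules name are not reported here. The members and lists were chosen with earlier results of these data known. Alternatives were other scalings, deeper spots, other folds, thinning depths and resolution.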

Additional observations from a re-analysis of the deposited data

Results flagged for a closer look

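With 1 section a day no sample could be compared with others of its group. Some genes lay on opposite sides of the same uninjured section on different days, each with an interval that excludes 1; these differences were not tested. The log2 ratio to day 0 was higher at 3 dpi than at 1 dpi by 1.28 for Axl, 1.52 for Gas6 and 1.36 for Pros1, and higher at 7 dpi than at 1 dpi by 1.26, 2.56 and 1.47, these being below day 0 at 1 dpi and above it later. The stromal list, at 984, 253, 747 and 1732 CPM on the 4 days, had its lowest level in the same section, and its part in these values was not tested. For Mfge8 the 3 dpi ratio minus the 1 dpi ratio was -0.44 and the 7 dpi ratio lay 1.12 above that of 3 dpi. These signs were kept under TMM, DESeq2 and muscle-free totals.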

How the results depend on the processing

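No paired analysis was possible because each day has 1 section. Each member keeps its UMIs under any scaling, so scaling shifts all log2 ratios of a comparison alike. Under TMM, DESeq2 and the muscle-free total, the median log2 ratio of the 10 genes was 0.25, 0.25 and 0.27 at 1 dpi against day 0, 0.82, 0.81 and 0.98 at 3 dpi, 0.54, 0.51 and 0.88 at 7 dpi, 0.85, 0.84 and 0.99 for 3 against 1 dpi and -0.43, -0.45 and -0.25 for 7 against 3 dpi. At least 2-fold higher than day 0 were 5, 5 and 5 genes at 3 dpi, beside 18.1%, 17.9% and 20.9% of all genes. At 7 dpi these were 2, 2 and 4, beside 13.04%, 12.6% and 20.2%. Under TMM and DESeq2 Cd36 became 1 gene lower at 7 dpi, beside 5.13% and 5.5% of all genes. For 3 against 1 dpi 4 and 3 were higher under TMM and DESeq2, beside 10.3% and 10.1%. For 7 against 3 dpi 1 and 1 were higher, beside 11.6% and 11.4%. Cd36 at 3 against 1 dpi turned from 0.25 to -0.12 and -0.13. With calls at 1.5-fold 5 genes were higher at 1 dpi, beside 30.2% of all genes. With calls at 3-fold 5 were higher at 3 dpi, 2 at 7 dpi, 1 for 3 against 1 dpi and 0 for 7 against 3 dpi, with 1 lower, beside 17.5%, 13.4%, 7.502% and 5.31% of all genes higher and 4.37% lower. In the richest 10% of macrophage spots at 1 dpi 8 genes were at least 2-fold higher, and with the muscle-free total 2 at 7 dpi; Gas6 at 3 dpi turned to 0.994. Stab1 in spots rich in chondrogenic genes at 7 dpi turned from 1.12 to 0.930 with that total and 0.966 in the richest 10%. With all UMIs in place of thinning, the ratio to the product was 1.27 and 1.11 for Cd47 and Sirpa at 1 and 3 dpi, and 1.13 and 1.05 for Thbs1 and Cd36 at 1 and 7 dpi. Without Ctss, Stab1 per macrophage UMI at 3 over 1 dpi turned from 0.833 to 1.17. Leaving out spots under 1000 UMIs changed no count and no log2 ratio beyond counting error. With finer regions (resolution 1), 20 of 40 highest region levels left their counting interval, at 0.676 to 1.72 times the value given, and 21 of the 40 regions shared a leading gene with that first named; Axl (205 CPM) and Stab1 (349 CPM) at 7 dpi and Gas6 (158 CPM) at 1 dpi moved by over 1.5 times. The cause of these shifts was not tested. Depth limits Mertk and Fpr2 most.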

Other observations

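Gas6 and Mfge8 were concentrated in some spots. The spot richest in Gas6 held 11, 6, 46 and 122 UMIs of it on days 0, 1, 3 and 7, while 95% of spots held at most 4, 1, 7 and 13. For Mfge8 the richest spot held 36, 19, 41 and 71 UMIs, and for Pros1 at most 5, 3, 10 and 9. Sirpa had at most 40 UMIs in a spot at 7 dpi and 36 at 3 dpi, although its section level at 7 dpi was lower. Sirpb1c, a related receptor gene, had 3, 175, 1347 and 47 UMIs, and Sirpb1b 2, 53, 439 and 20.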
